A study of Mus musculus with 16 samples.

Results

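The ketone body genes examined here are 8 mouse genes whose products make use of, convert or carry ketone bodies: Bdh1, Bdh2, Oxct1, Acat1, Aacs, Slc16a1, Slc16a6 and Slc16a7. They were chosen by name, with earlier results of these data known, out of 21887 protein-coding genes on the assembled chromosomes. A genomic region was counted for a gene when it overlapped the gene or lay within 10 kb of it on the mm10 genome, and genes without such a region were kept. The regions came from chromatin immunoprecipitation and sequencing of histone H3 carrying beta-hydroxybutyrate on lysine 9 (H3K9bhb) in occipital cortex homogenate of young C57BL/6J mice (postnatal day 35). A fast of 48 h was set against ad libitum feeding, and each feeding state had 4 immunoprecipitated and 4 input libraries, so the design asked where the mark differed with fasting. Neither the sex of the mice nor any pooling of animals is stated in the labels. The authors deposited 8404 regions enriched in fasted mice and 1 enriched in ad libitum mice, each with a log likelihood ratio (log-LR) as its own value, and no value per library. No level of the mark, replicate spread or depth could therefore be given for any gene, and no difference was tested over mice.

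Ketone bodies are made from fatty acids, mainly in the liver, and reach the brain as a fuel when glucose is scarce. In brain mitochondria beta-hydroxybutyrate is oxidised to acetoacetate by the enzyme of Bdh1, acetoacetate is coupled to coenzyme A by the enzyme of Oxct1, and the product is split into acetyl-CoA by the thiolase of Acat1. Ketone bodies cross membranes through monocarboxylate transporters, of which MCT1 (Slc16a1) is abundant at the blood-brain barrier and MCT2 (Slc16a7) is the main neuronal form. Beta-hydroxybutyrate can also be attached to histone lysines, which gives the mark profiled here.

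Of the 8 genes, 3 had a fasting-enriched region and 5 had none. Bdh1 held 2 regions, and Oxct1 and Slc16a6 held 1 each, 4 of the 8404 regions in all. Across all protein-coding genes 23.3% had a region in or within 10 kb, and for 2 or more regions, as at Bdh1, the share was 5.08%. The Bdh1 pair, 408 bp apart, counted as 1 region when regions within 1 kb were merged. All 4 regions overlapped their gene, so none lay wholly in the flanking 10 kb. Longer genes had a region more often across the genome: the share was 23.7% in the third quartile of genes by length (17.2 to 44.3 kb) and 36.5% in the longest quartile. The third quartile holds 6 of the ketone body genes, of which Bdh1 and Slc16a6 had a region, and the longest quartile holds Oxct1, which had a region, and Slc16a7, which had none. With 8 genes chosen by name and with earlier results of these data known, a count of 3 was not tested against these shares. The ad libitum region, on chromosome 3, was 46.0 Mb from Slc16a1 and 76.6 Mb from Bdh2, the members on that chromosome.

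The DNA before the annotated starts is shown for every member start in the promoter table, so that starts with a region nearby can be set beside those without. RefSeq promoter windows for build GRCm38.p6, the assembly called mm10, were matched for 5 members by gene identifier (Bdh1 with 2 starts, Bdh2, Oxct1, Aacs and Slc16a1). Acat1, Slc16a6 and Slc16a7 had no entry in the table. Each sequence below is the 250 bases before a start, 5′ to 3′, with CpG dinucleotides in capitals.
Bdh1, first start, chr16:31422047-31422296, plus strand: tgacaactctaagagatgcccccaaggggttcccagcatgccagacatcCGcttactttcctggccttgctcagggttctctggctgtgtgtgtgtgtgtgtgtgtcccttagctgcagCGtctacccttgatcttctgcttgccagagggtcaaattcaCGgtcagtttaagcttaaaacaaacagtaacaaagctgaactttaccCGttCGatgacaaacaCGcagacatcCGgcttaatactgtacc
Bdh1, internal start, chr16:31428503-31428752, plus strand: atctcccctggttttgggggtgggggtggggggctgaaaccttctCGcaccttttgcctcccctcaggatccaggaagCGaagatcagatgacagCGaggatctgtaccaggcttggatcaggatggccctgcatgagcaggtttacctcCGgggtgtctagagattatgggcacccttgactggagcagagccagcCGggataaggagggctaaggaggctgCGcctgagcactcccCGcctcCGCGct
Oxct1, chr15:4026178-4026427, plus strand: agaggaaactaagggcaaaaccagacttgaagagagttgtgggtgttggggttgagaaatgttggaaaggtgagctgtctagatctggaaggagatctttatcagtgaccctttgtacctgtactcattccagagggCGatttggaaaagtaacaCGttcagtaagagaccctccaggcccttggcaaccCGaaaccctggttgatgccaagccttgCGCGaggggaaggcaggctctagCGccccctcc
Bdh2, chr3:135280971-135281220, plus strand: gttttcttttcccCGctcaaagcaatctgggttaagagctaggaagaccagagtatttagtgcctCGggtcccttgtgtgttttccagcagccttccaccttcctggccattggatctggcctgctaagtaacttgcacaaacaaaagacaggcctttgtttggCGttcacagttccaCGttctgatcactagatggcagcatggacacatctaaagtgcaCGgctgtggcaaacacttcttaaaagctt
Aacs, chr5:125475623-125475872, plus strand: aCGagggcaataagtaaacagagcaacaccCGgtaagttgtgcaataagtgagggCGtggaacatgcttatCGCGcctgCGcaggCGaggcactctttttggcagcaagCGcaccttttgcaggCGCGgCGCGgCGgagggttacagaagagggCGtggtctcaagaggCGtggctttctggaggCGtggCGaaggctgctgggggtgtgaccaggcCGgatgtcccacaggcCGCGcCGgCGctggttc
Slc16a1, chr3:104638414-104638663, plus strand: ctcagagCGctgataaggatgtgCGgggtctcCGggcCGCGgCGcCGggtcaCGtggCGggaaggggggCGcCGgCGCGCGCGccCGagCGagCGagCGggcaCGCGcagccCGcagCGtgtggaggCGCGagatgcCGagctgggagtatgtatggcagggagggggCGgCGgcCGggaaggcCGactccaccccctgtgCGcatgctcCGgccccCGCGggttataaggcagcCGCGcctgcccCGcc
These 250 bases hold 9 CpG at the internal start of Bdh1 and 6 at Oxct1, the starts with a region within 1 kb. At the starts without one they hold 5 at Bdh2, 7 at the first start of Bdh1, 22 at Aacs and 37 at Slc16a1, so the counts of the former lie within the range of the latter.

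Bdh1 encodes the mitochondrial enzyme that interconverts beta-hydroxybutyrate and acetoacetate, and it had the only pair of regions among the members. The gene spans chromosome 16, 31422297 to 31458901. One region lay at 31428892 to 31429042, with a width of 151 bp and a log-LR of 4.58. The other lay at 31429451 to 31429720, with a width of 270 bp and a log-LR of 3.81. Only 408 bp separated them. Both were inside the gene but far from its outer ends: the nearer was 6595 bp from the first start. The table lists an internal start of Bdh1 at position 31428753, 6456 bp downstream of the first, and relative to that start the regions covered 139 to 289 bp and 698 to 967 bp downstream. A count that looks only at the outer ends of genes therefore misses Bdh1, while a count over annotated starts includes it. Both regions also lay inside Gm15743, a long non-coding RNA (lncRNA) gene annotated on the opposite strand. Its start is at position 31429776, so that the region with a log-LR of 3.81 was 56 to 325 bp and that of 4.58 was 734 to 884 bp downstream of that start.

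Oxct1 encodes succinyl-CoA:3-oxoacid CoA transferase, the mitochondrial enzyme that commits acetoacetate to oxidation and that the liver, which exports ketone bodies, largely lacks. It spans chromosome 15, 4026428 to 4155344, a length of 129 kb. Its single region, at 4026953 to 4027280, was 328 bp wide, wider than 82.2% of all fasted regions, and had a log-LR of 4.88. It covered 525 to 852 bp downstream of the annotated start, and no further region was found in the remaining 128 kb of the gene. As at Bdh1, the region lay inside an lncRNA gene on the opposite strand, BC037032, whose start at position 4027406 was 126 bp beyond the region. The next region outwards, 46.9 kb before the gene, overlapped Fbxo4, which encodes an F-box protein, and had a log-LR of 5.61.

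Slc16a6 encodes MCT7, a transporter of the monocarboxylate family that has been linked to ketone body export from hepatocytes. The gene spans chromosome 11, 109450855 to 109473598. Its region, at 109473387 to 109473620, was 234 bp wide and had a log-LR of 5.18, the highest among the members. It straddled the higher-coordinate end of the gene, with 212 bp inside and 22 bp outside. The whole region lay inside Arsg, the gene of a lysosomal sulfatase, which overlaps Slc16a6 by 266 bp. The deposited value cannot be assigned to either gene.

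**Figure D1:**
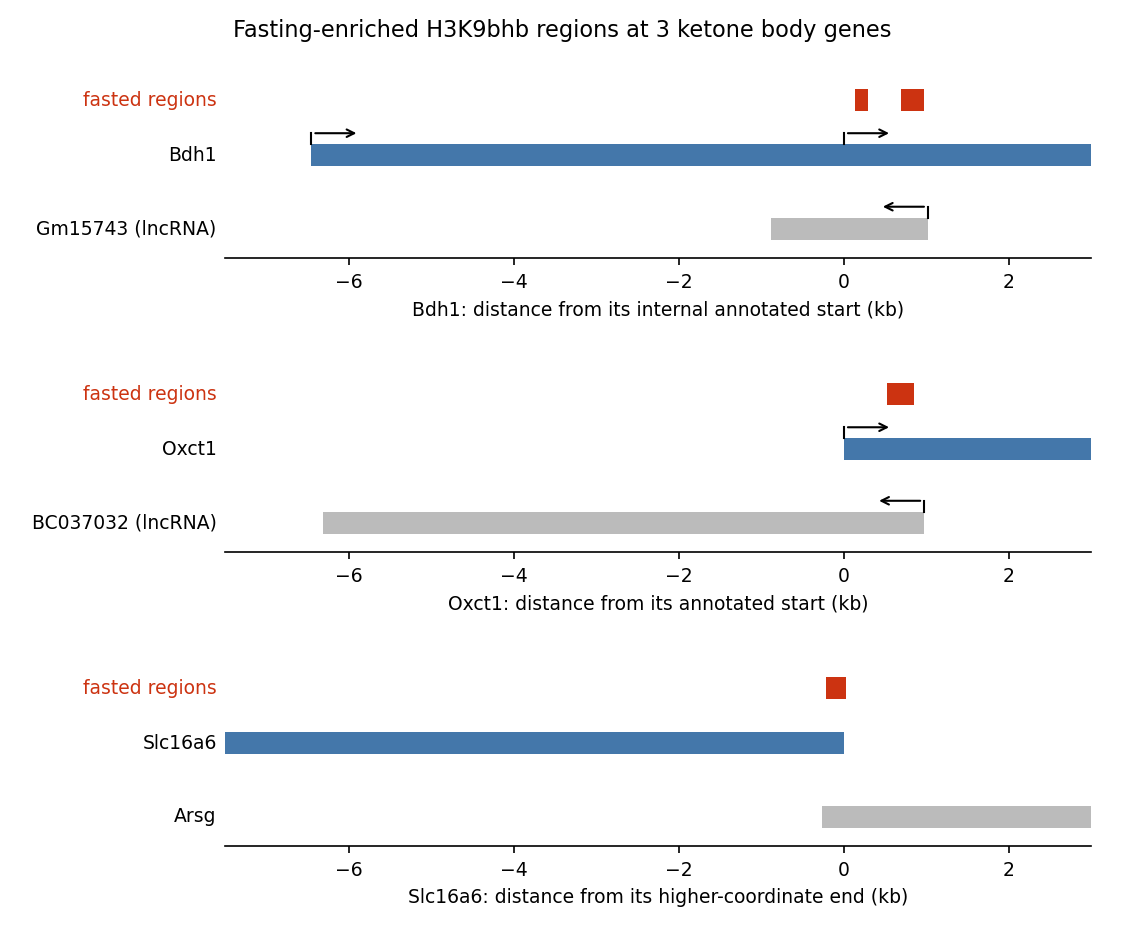
Maps of the 3 genes with a region, drawn to scale. The x axis is distance in kb from the internal start of Bdh1, the start of Oxct1 or the higher-coordinate end of Slc16a6, red blocks are fasting-enriched regions, blue bars the ketone body gene, grey bars the overlapping gene, and arrows annotated starts with their direction where the promoter table has one. The Bdh1 and Oxct1 regions lie between the start of the gene and the start of an lncRNA gene on the opposite strand, and the Slc16a6 region lies where that gene and Arsg overlap.

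All 4 regions thus overlapped a second annotated gene, an lncRNA gene for 3 of them. Among all fasted regions that overlapped a protein-coding gene, 443 of 4359 (10.2%) overlapped at least 1 further annotated gene. This feature was noticed after the positions were seen and was not tested. The reads behind a region carry no strand of transcription, so the lists do not say to which gene of a pair a region belongs.

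The 5 genes without a region in or within 10 kb were Aacs, Acat1, Slc16a1, Bdh2 and Slc16a7, in order of distance to the nearest region. Aacs, the cytosolic acetoacetyl-CoA synthetase that directs acetoacetate to lipid synthesis, lay just outside the limit, with the closest region 15.3 kb away inside Tmem132b (log-LR 4.25). It was followed by a region 33.8 kb away in Bri3bp (log-LR 6.78). For Acat1, the mitochondrial thiolase, the closest region was 56.9 kb away, in the cullin gene Cul5 and the lncRNA gene Gm16124 (log-LR 4.64). The closest to Slc16a1 was 131 kb away, in the small GTPase gene Rhoc (log-LR 3.72). For Bdh2, a cytosolic short-chain dehydrogenase, it was 134 kb away, in the ubiquitin-conjugating enzyme gene Ube2d3 (log-LR 4.01). Slc16a7 stood farthest: 534 kb separated it from the closest region (log-LR 3.74), although at 170 kb it is the longest of the 8 genes.

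Over all protein-coding genes the median distance to the nearest region was 69.2 kb, with quartiles of 12.7 and 181 kb. Slc16a1, Bdh2 and Slc16a7 lay beyond that median. The share of genes closer to a region than the member was 26.5% for Aacs, 45.8% for Acat1, 66.5% for Slc16a1, 67.1% for Bdh2 and 94.6% for Slc16a7. By role, the mitochondrial ketone-oxidising enzymes had a region at Bdh1 and Oxct1 but not at Acat1. The transporters had one at Slc16a6, shared with Arsg, and none at the blood-brain barrier form Slc16a1 or the neuronal form Slc16a7. Across all protein-coding genes 23.3% had a region in or within 10 kb, and a difference between roles was not tested. The absence of a region says that the authors' list holds no fasting difference there, not that the mark was absent or alike in both feeding states.

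**Figure D2:**
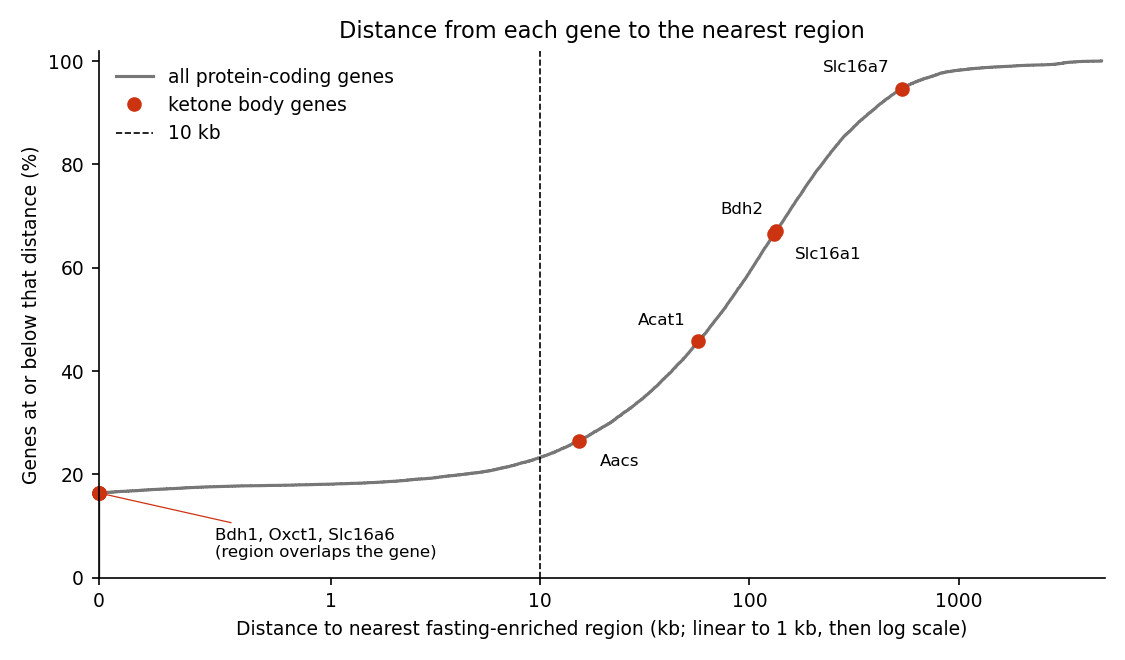
Distance from a gene to its nearest fasting-enriched region (x axis, kb, linear up to 1 kb and log beyond) against the share of protein-coding genes at or below that distance (y axis, percent). The grey line is all 21887 genes and red points are the 8 ketone body genes. Bdh1, Oxct1 and Slc16a6 sit at 0, Aacs at 15.3 kb just past the dashed 10 kb line, and Slc16a7 at 534 kb near the top of the curve.

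The regions at these genes lay in the lower and middle range of the list by log-LR. Their values ran from 3.81 to 5.18 with a median of 4.73, against a median of 4.96 and quartiles of 4.16 and 6.28 over all 8404 regions. The share of all regions with a lower log-LR was 13.0% and 39.0% for the Bdh1 pair, 48.1% for Oxct1 and 55.5% for Slc16a6. Widths ran from 151 to 328 bp, around the list's median of 205 bp. At a log-LR of at least 5 the region of Slc16a6 was left and those of Bdh1 and Oxct1 were not, so that 1 of 8 genes had a region, against 12.6% of all protein-coding genes.

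**Figure D3:**
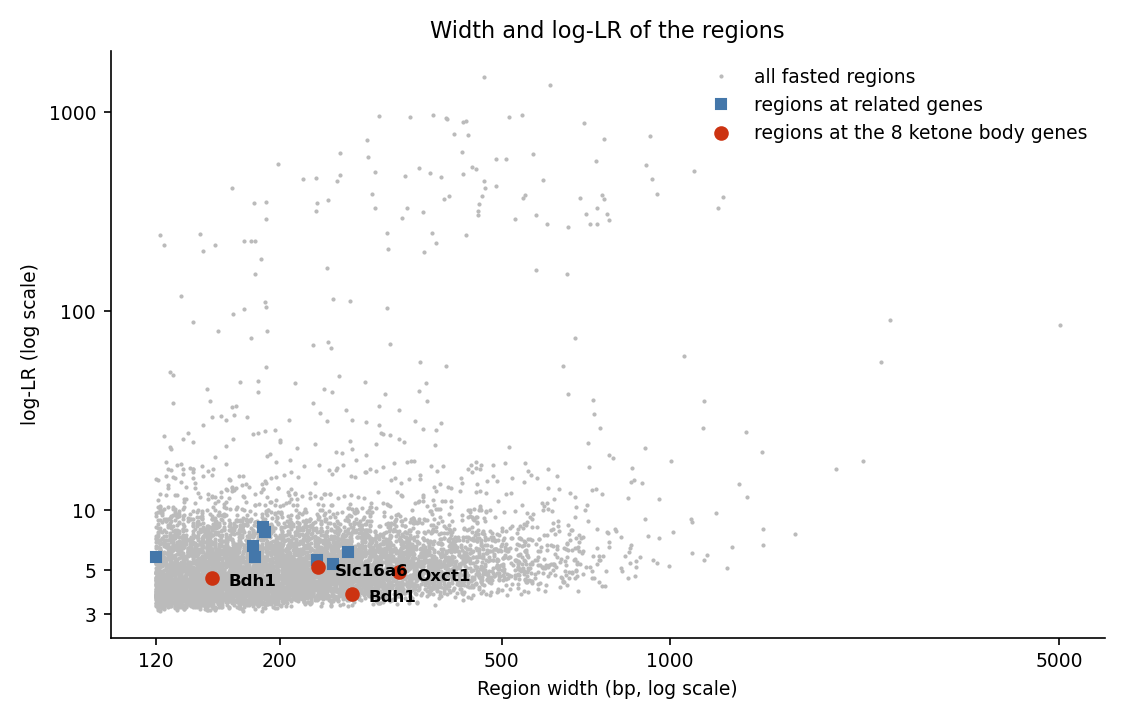
Width in bp (x axis, log scale) and log-LR (y axis, log scale) of every fasting-enriched region (grey), of the 8 regions at related ketone pathway genes (blue squares) and of the 4 regions at the ketone body genes (red circles, named). The red circles lie between 3.81 and 5.18, below every blue square (5.37 to 8.24). The median of all fasted regions is 4.96.

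The regions at Bdh1 and Oxct1 lay after an annotated start, as did most fasted regions near starts. Of 7963 regions on chromosomes with a promoter window, 1911 (24.0%) had their centre within 1 kb downstream of the nearest protein-coding start and 351 (4.41%) within 1 kb upstream. The fullest class was 250 to 500 bp downstream, with 813 regions. The nearer Bdh1 region, centred 214 bp after the internal start, fell in the neighbouring class of 0 to 250 bp with 709 regions. The region of Oxct1 was centred farther in, in the class of 500 to 750 bp with 281 regions. The other Bdh1 region was in the sparser class of 750 to 1000 bp, with 107. These classes leave out lncRNA starts, and both of these regions lay closer to one. The Oxct1 region was 126 to 453 bp downstream of the BC037032 start. The other Bdh1 region was 56 to 325 bp downstream of the Gm15743 start. A region within 1 kb of a start was found for Bdh1 and Oxct1, 2 of the 5 members with a promoter window, against 13.2% of all protein-coding genes with one. That count over starts was chosen after seeing the data. By contrast, a region within 1 kb of either outer gene end was found for Oxct1 and Slc16a6, 2 of 8, against 11.9% of all protein-coding genes. Neither count was tested against its share.

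**Figure D4:**
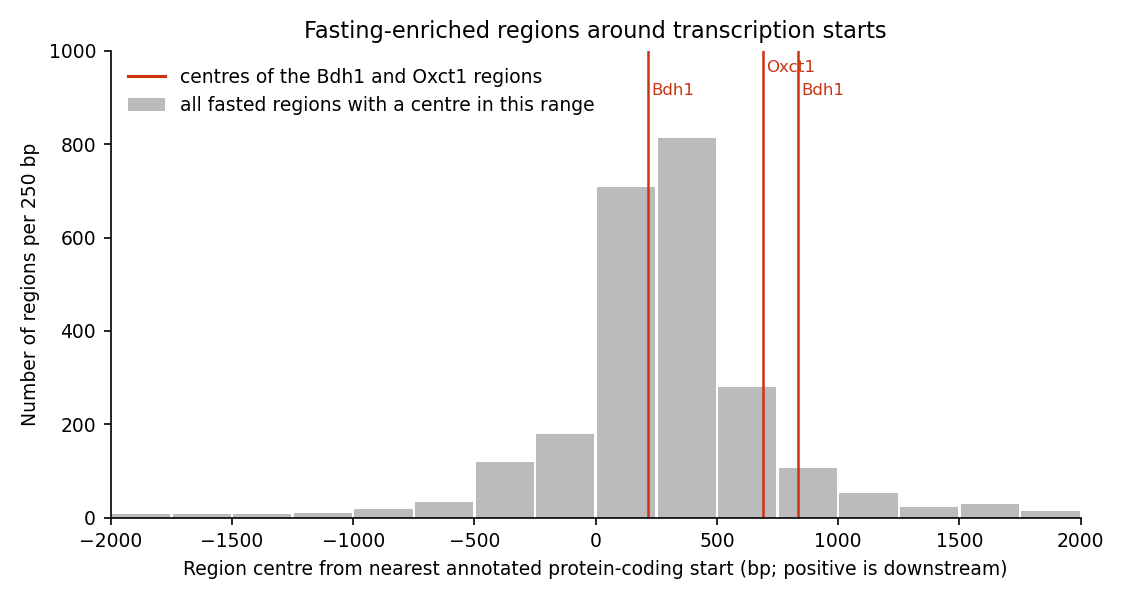
Number of fasting-enriched regions (y axis) by the distance of their centre from the nearest annotated protein-coding start (x axis, bp, in classes of 250 bp, positive values downstream). Red lines mark the 3 regions at Bdh1 and Oxct1, all downstream, where 1911 regions lie within 1 kb against 351 upstream.

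By the CpG density of their promoters, the members with the highest values had no region. CpG density was taken as the observed over expected CpG of the window from 250 bases before to 50 after the start, where 1 is the number that the C and G content alone would give. It was 1.06 for Slc16a1 and 1.02 for Aacs, higher than in 95.7% and 93.5% of all 21263 windows of protein-coding genes. Neither had a region within 1 kb of its start. The starts with a region lay within the range of those without, with 0.56 at the internal start of Bdh1 and 0.49 at Oxct1. The first start of Bdh1 (0.40) and that of Bdh2 (0.34) were lowest and had no region. Over all windows, a region within 1 kb was found at 25.4% of starts with a value of at least 0.75, 12.2% of those from 0.35 to 0.75 and 1.22% of those below 0.35. Windows with a region had a median of 0.84 and the others 0.48. Slc16a1 and Aacs thus belonged to the class in which a region was most frequent, in which most starts still had none.

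**Figure D5:**
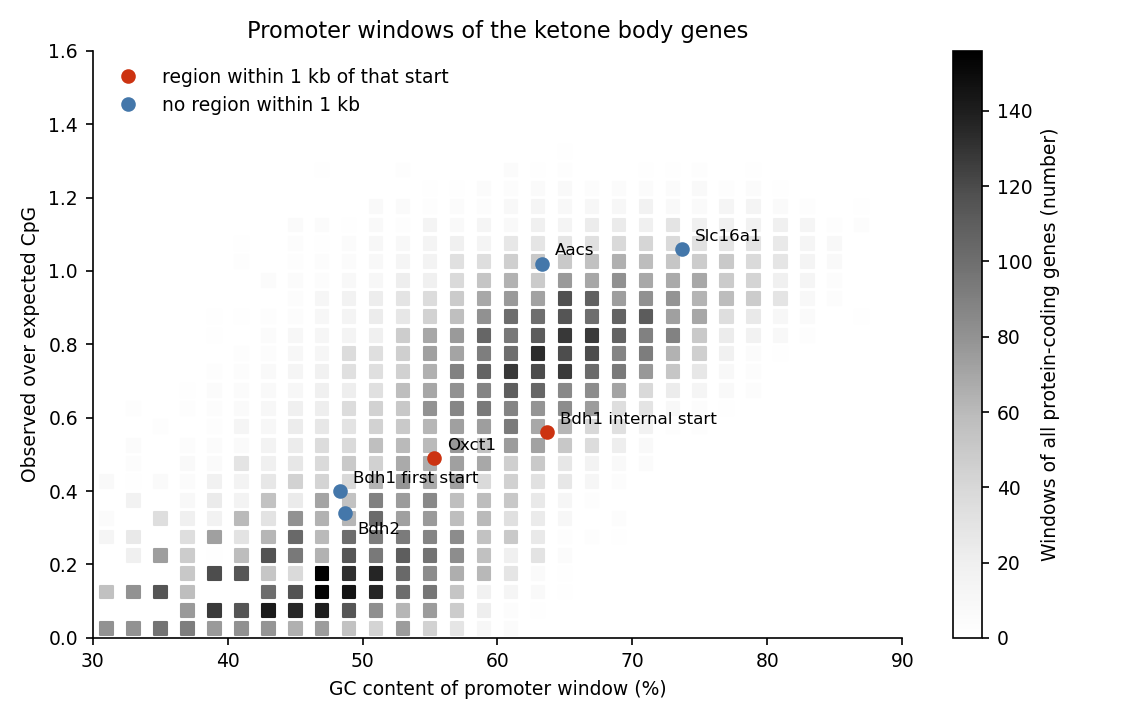
GC content (x axis, percent) and observed over expected CpG (y axis) of the promoter windows. Grey squares count the windows of all protein-coding genes, red points are member starts with a fasting-enriched region within 1 kb, and blue points member starts without. The red points, Oxct1 at 0.49 and the internal start of Bdh1 at 0.56, lie below Aacs and Slc16a1 and above the first start of Bdh1 and Bdh2.

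Motifs were searched on both strands of the windows of 250 bases before and 50 after each start. They were the TATA box (TATAAA), the CCAAT box, the Sp1-type GC box (GGGCGG), the cyclic AMP response element (TGACGTCA) and its shorter form within it (TGACGT), the E-box (CACGTG), the estrogen-related receptor motif (TCAAGGTCA), and, by name only, the NRF1 and PPAR response motifs. The window of the internal Bdh1 start held 1 match, to the GC box, which is present in 35.7% of the 32851 windows of all genes in the table, coding and non-coding; the shares that follow are over the same set. None of these motifs was matched in the windows of Oxct1 or of the first Bdh1 start. Slc16a1 held the GC box and the E-box, the latter present in 7.15% of windows. Aacs held the NRF1 motif, present in 4.60%, and Bdh2 the CCAAT box, present in 37.4%. These are matches of letters in short windows and say nothing of binding.

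The wider pathway was covered by 29 related genes, and 6 of them (20.7%) had a region in or within 10 kb, close to the 23.3% of all protein-coding genes. They comprised genes of ketone body synthesis, paralogs of the members, other transporters and their partners, receptors and regulators.

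Among the further SLC16 transporter genes, the regions of Slc16a10 (log-LR 6.17) and Slc16a13 (log-LR 5.80) were outside the genes, 8.46 and 9.92 kb away. The former overlapped Mfsd4b1, and the latter overlapped no gene. The Slc16a13 region was closer to other genes, the nearest being the microRNA gene Mir497b, 1852 bp away. The protein-coding genes 0610010K14Rik and Bcl6b were 2364 and 2862 bp away. No region was counted for Slc16a3, the lactate exporter gene known as MCT4. The sodium-coupled transporters Slc5a8 and Slc5a12, the transporter partners Bsg and Emb, the receptors Hcar1, Hcar2 and Ffar3, and the paralogs Oxct2a, Oxct2b, Acat2 and Acat3 had 0 regions in or within 10 kb. Most protein-coding genes had none either, as 23.3% had one. The receptors, Oxct2a and Oxct2b belong to the shortest quartile of genes by length (up to 5.67 kb), and longer genes had a region more often.

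Of the regulators, Ppara had 2 regions and Fgf21 and Cpt1a had none. Ppara encodes the nuclear receptor that drives fatty acid oxidation and ketogenesis in fasted liver. One of its regions (chromosome 15, 85735492 to 85735740, log-LR 5.37) covered positions -284 to -36 relative to an annotated start inside the gene. The whole region lay within Ppara, 582 bp from its lower-coordinate end. This was the only region of the members or related genes that reached into the bases before a start in the promoter table, so its sequence can be shown in part. The 250 bases before that start follow, with the 215 that lie inside the region in capitals.
Ppara, chr15:85735526-85735775, plus strand: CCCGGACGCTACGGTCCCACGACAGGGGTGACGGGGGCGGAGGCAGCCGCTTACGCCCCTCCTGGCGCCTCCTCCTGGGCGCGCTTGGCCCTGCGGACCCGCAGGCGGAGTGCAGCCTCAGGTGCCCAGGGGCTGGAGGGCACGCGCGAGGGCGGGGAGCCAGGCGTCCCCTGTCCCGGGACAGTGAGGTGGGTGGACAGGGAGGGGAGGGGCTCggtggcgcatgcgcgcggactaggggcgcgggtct
They hold 27 CpG, and the capitals contain both GC box matches of the window. An NRF1 motif match begins at position -31, after the region. The second region counted for Ppara (log-LR 8.24) was 4.60 kb outside it and lay in Cdpf1.

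The 8 regions of the related genes had log-LR from 5.37 to 8.24 with a median of 6.00, all above the 4 of the ketone body genes. All 6 related genes therefore remained at a log-LR of at least 5, a limit at which only Slc16a6 of the 8 members did. This difference in log-LR was seen after the values were read, has no replicate check and was not tested.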

How the data were processed

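H3K9bhb chromatin and input DNA were sequenced from fasted and ad libitum fed mice, 4 libraries of each kind per feeding state. The submitters' processing notes list Bowtie2, MACS2 and mm10, with no version and no statement of what each did. Per the file headers, the authors deposited regions with a log-LR, used here as a score. For its log base and cutoff, the depth scaling and any pooling, the sources used here give nothing, and depth is unknown. Differences in depth or immunoprecipitation yield between feeding states would move which regions are listed.

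Starts were read as counted from 0 and are printed from 1. Genes came from RefSeq (GRCm38.p6), without exons, so exons and introns were not separated. Annotated starts and strand came from the RefSeq promoter table. All 8 members, all related genes with a region, and protein-coding genes overlapping a counted region were to be named. Some genes this takes are not reported here. Other genes, the CpG classes and overlapping lncRNA genes were chosen after values were seen. Members and lists were chosen with earlier results of these data known. Placement was tested on simulated regions. Python 3.11.15, numpy 2.4.6, pandas 2.3.3 and matplotlib 3.10.9 were used. Alternatives varied distance, log-LR limit, placement, merging and shared regions.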

Additional observations from a re-analysis of the deposited data

How the results depend on the processing

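Of 11 alternative settings, 9 were planned and 2 (annotated starts, unshared regions) were chosen after seeing the data. The count of 3 members kept within 1.5 times of itself in all but 1 of them: at a log-LR of at least 5 it was 1 (Slc16a6), with 1 region. It was 2 within 1 kb of either gene end (Oxct1 and Slc16a6). Within 1 kb of an annotated start, and for regions in no other protein-coding gene, it was also 2 (Bdh1 and Oxct1). Within 50 kb it rose to 4, with Aacs. No member had a region in every setting. The 4 member regions became 7 within 50 kb and 2 within 1 kb of either gene end. With regions within 1 kb merged they were 3, as the Bdh1 pair became 1. The 6 related genes became 15 within 50 kb, 2 within 1 kb of either end and 1 within 1 kb of an annotated start. The share of all protein-coding genes with a region, 23.3%, was 16.4% for overlap only, 18.1% within 1 kb, 20.3% within 5 kb, 43.0% within 50 kb, 12.6% at a log-LR of at least 5, 18.2% for the nearest gene only, 11.9% within 1 kb of either end, 10.6% within 1 kb of an annotated start (genes with no promoter window counted as without) and 17.5% for regions in no other protein-coding gene. These shifts follow from wider, narrower or stricter selection. No paired analysis was possible because each deposited region has a single value for both feeding states together, and leaving out replicates was not run for the same reason.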

Other observations

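Marker genes of cortical cell types could be checked only for the presence of a region, since the lists give no level. A region in or within 10 kb was found for 4 of 18 brain markers (22.2%), namely Camk2a of excitatory neurons, Pvalb of inhibitory neurons, Aldh1l1 of astrocytes and Mbp of oligodendrocytes, against 23.3% of all protein-coding genes. It was found for 0 of 3 liver markers (Alb, Apoa1 and Ttr), whose nearest regions were 94.3 to 300 kb away.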
